A study of Mus musculus with 42 samples.

Results

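Gene expression in diabetic wounds treated with interleukin-22 fused to an antibody Fc part (IL-22-Fc) was compared with that in wounds treated with platelet-derived growth factor (PDGF) on day 7. The comparison holds 8 of the 42 arrays of the series, 5 from IL-22-Fc wounds and 3 from PDGF wounds, chosen by the treatment and time point in their labels, and all 20672 probe sets of the deposited table. All day 7 wounds were made in female db/db mice aged 10 to 12 weeks, which lack a working leptin receptor and become obese and diabetic. The strain label of these samples reads C57BL/6. A 6 mm wound was dosed on its surface on days 0, 2, 4 and 6, and a 2 mm rim of skin around it was taken on day 7. PDGF was given as 50 µg of PDGF-BB. For IL-22-Fc the treatment protocol gives 50 µg and the design text 20 µg. The same fit also held 5 VEGF wounds and 5 control wounds of that day, and what the control wounds received is named as anti-ragweed by the labels but as a control Fc by the protocol. The design planned 5 mice in each group, and 3 PDGF arrays of day 7 are analysed here. Nothing in the labels ties an array to a mouse, so the p-values measure the spread between these arrays, which may be technical in part.

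IL-22 acts on epithelial cells, since its receptor, made of the IL-22R1 and IL-10Rb chains, is absent from most blood cells, and it signals mainly through STAT3. In keratinocytes it is known for raising antimicrobial proteins and for holding back cornification, the terminal step of epidermal differentiation. PDGF acts on mesenchymal cells through the receptor kinases PDGFRa and PDGFRb, and is known in wounds for drawing in fibroblasts and for building granulation tissue. A further programme of wounds is that of alternatively activated macrophages, which IL-4 and IL-13 turn on through STAT6 and which includes resistin-like and chitinase-like proteins. In whole skin, fewer cells of a type and less RNA per cell cannot be told apart.

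Arrays of the 3 PDGF wounds stood apart from the other day 7 arrays in 1 technical respect. The table holds Gapdh and Actb as control probe sets at the 5' end of the transcript, and labelling starts at the 3' end, so these probe sets read low when the labelled RNA is short. The 5' Gapdh level was 12.96 to 13.26 on the log2 scale in IL-22-Fc wounds, against 11.26, 11.58 and 11.60 in PDGF wounds, a difference of 1.65 (SE 0.11, adjusted p = 2.26e-10 in limma, 2-sided exact permutation p = 0.0179, the smallest that 5 against 3 arrays allow). For 5' Actb the levels were 12.82 to 13.51 in IL-22-Fc wounds and 12.57 to 12.78 in PDGF wounds (difference 0.53, exact permutation p = 0.0357). The mean of both, called the 5' level below, was 12.89 to 13.35 in IL-22-Fc wounds and 11.92 to 12.18 in PDGF wounds, against 13.12 to 13.37 in VEGF wounds and 12.95 to 13.18 in control wounds. Only 1 other array of the series was that low, a skin sample of day 0 before any wound (11.72, against 12.85 to 13.13 in the other 4). No PDGF array of 24 h was low, and there the 5' Gapdh difference had the opposite sign (-0.45, exact permutation p = 0.00794). Since all 3 PDGF arrays and none of the 5 IL-22-Fc arrays had a low 5' level, PDGF treatment and the 5' level cannot be told apart on day 7 from these 8 arrays alone. The 5' probe sets were not set against 3' probe sets of the same genes, so whether the labelled RNA was short was not tested.

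Genes of epidermis and dermis were well expressed, as the skin label asks. Krt5, the keratin of basal keratinocytes, was at 13.02 to 13.21 in IL-22-Fc wounds and 13.30 to 13.66 in PDGF wounds. Krt1, a keratin of the layers above, was at 13.69 to 13.87 in IL-22-Fc wounds and 13.52 to 13.62 in PDGF wounds. Neither was called. Col1a1, the main collagen chain of dermal fibroblasts, was at 12.69 to 13.25 in IL-22-Fc wounds and 11.81 to 12.62 in PDGF wounds. The 5 Y-linked probe sets, which female mice cannot express, reached at most 3.78 on any day 7 array, and a level at or under that is called background below. All levels in the text are log2 of the deposited intensity, and a difference of 1 is a 2-fold change.

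A probe set was called when the limma adjusted p was under 0.05 and the change at least 1.5-fold. On day 7, 2111 of 20672 probe sets were called higher in IL-22-Fc than in PDGF wounds (10.2%) and 1599 were called lower (7.74%). Every count of list members between these groups below is to be read beside these shares. Large changes lay mostly on the higher side, with 143 probe sets at least 4-fold higher and 33 at least 4-fold lower, but the 4 that passed 16-fold downwards outnumbered the 1 that passed it upwards. The median difference over all probe sets was -0.04. The groups did not overlap for 3586 probe sets with all IL-22-Fc arrays on top (17.3%) and for 4451 with all PDGF arrays on top (21.5%). Each group was also set against the control wounds in the same fit, and these contrasts share arrays with the comparison, so they only place each group. IL-22-Fc wounds had 309 probe sets higher and 166 lower than control wounds (1.49% and 0.803%, or 2.3% in all), and PDGF wounds had 1338 higher and 1977 lower (6.47% and 9.56%). Counts of list members against control below are to be read beside these shares, which differ between the groups. With the 5' level as a covariate the calls between IL-22-Fc and PDGF wounds fell to 106 higher (0.513%) and 40 lower (0.193%), or 0.706% in all. The median SE was 0.382, against 0.119 without it. Among these arrays the covariate follows the PDGF group closely. Values given with it below are therefore uncertain and are not corrected differences.

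The largest increase was that of Alox8, a lipoxygenase of stimulated mouse epidermis. It was at 11.04, 11.15, 11.16, 10.89 and 11.11 in the 5 IL-22-Fc wounds, against 4.97, 5.33 and 4.65 in the 3 PDGF wounds. Every IL-22-Fc array was thus far above every PDGF array, and the control wounds (3.63 to 6.21) were near the PDGF wounds. The difference was 6.09 (SE 0.40, 68.0-fold, adjusted p = 3.35e-10), and it was 7.15 with the 5' covariate, under which the call was kept. Chil1, a chitinase-like protein without chitinase activity, was at 11.91, 12.41, 12.52, 12.26 and 12.34 in IL-22-Fc wounds, against 8.66, 8.40 and 8.07 in PDGF wounds (15.1-fold higher, log2 3.91, SE 0.41, adjusted p = 2.39e-07). Chil1 did not overlap between the groups, and the mean in control wounds (8.41) equalled that in PDGF wounds to within 0.04 on the log2 scale. Uox, urate oxidase, had 9.95, 9.99, 10.32, 10.08 and 10.55 in IL-22-Fc wounds and 5.80, 6.58 and 6.30 in PDGF wounds, 15.5-fold higher (adjusted p = 9.76e-06). Sprr2j-ps, a transcribed pseudogene of the small proline-rich cluster, was 3.33 higher on the log2 scale (adjusted p = 2.44e-05). For these last 2 genes too the control wounds, with means of 6.38 and 7.05, lay near the PDGF wounds.

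The antimicrobial and acute-phase genes, proteins that bind, sequester from or disrupt microbes, were mostly higher in IL-22-Fc wounds. Of 22 measured, 14 were called higher and 1 lower, and the median difference was 1.52, against -0.04 over all probe sets. Relative to control wounds, 12 were called higher and none lower in IL-22-Fc wounds, and 2 higher and 5 lower in PDGF wounds. Of all probe sets, 1.49% and 0.803% were so called in IL-22-Fc wounds, and 6.47% and 9.56% in PDGF wounds. With the 5' covariate 2 of the 22 were called higher, against 0.513% of all probe sets. Saa1, an acute-phase apolipoprotein, was at 7.46, 8.98, 8.96, 8.40 and 9.10 in IL-22-Fc wounds and 5.23, 4.61 and 5.44 in PDGF wounds (11.2-fold, adjusted p = 1.31e-06). All IL-22-Fc arrays were above the highest PDGF array. Lpo, lactoperoxidase, had 7.09, 7.79, 8.28, 7.58 and 7.75 in IL-22-Fc wounds, against 4.51, 4.57 and 4.45 in PDGF wounds (9.13-fold, adjusted p = 5.21e-11). Lcn2, which withholds iron from bacteria, stood at 11.30, 11.29, 11.20, 10.85 and 11.46 in IL-22-Fc wounds and at 8.94, 8.83 and 8.95 in PDGF wounds (4.98-fold, adjusted p = 4.49e-05). Neither gene overlapped between the groups. S100a9, a subunit of calprotectin, reached 14.41, 14.39, 14.34, 14.39 and 14.45 in IL-22-Fc wounds, against 12.80, 12.89 and 12.73 in PDGF wounds, 3.01-fold higher with hardly any spread within either group.

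Beta-defensins, small cationic peptides that damage bacterial membranes, rose over a wide range of levels. Defb4 was at 7.18, 6.93, 5.29, 4.71 and 5.95 in IL-22-Fc wounds and at 3.51, 3.33 and 3.54 in PDGF wounds, where all arrays were at background, so the measured difference of 2.55 (adjusted p = 7.98e-05) starts from a level that cannot be told from none. Defb3 was at 11.04, 11.07, 10.75, 11.26 and 11.11 in IL-22-Fc wounds and 8.44, 8.37 and 8.94 in PDGF wounds, and PDGF wounds were themselves 2.18 above control wounds, where it averaged 6.40. Its call (log2 2.46, adjusted p = 0.0159) was lost without PDGF replicate 1 (adjusted p = 0.0545) or PDGF replicate 2 (0.0543). Defb1, made by resting epithelia too, had 11.18, 11.25, 10.95, 10.98 and 10.99 in IL-22-Fc wounds, against 9.07, 9.26 and 9.28 in PDGF wounds (3.64-fold, adjusted p = 6.84e-10). Unlike Defb3, Defb1 lay between the groups in control wounds (mean 10.07). Among the other serum amyloid genes, Saa3 was 3.49-fold higher (adjusted p = 0.00051) and Saa2 1.97-fold (adjusted p = 0.00123), but Saa2 was at -0.041 on the log2 scale with the 5' covariate. Saa3 averaged 11.56 in IL-22-Fc wounds, 11.23 in control wounds, 12.10 in VEGF wounds and 9.75 in PDGF wounds, so its difference lay mostly on the PDGF side. Pglyrp1, a peptidoglycan-binding protein of neutrophil granules, was the 1 member called lower, at 5.26, 5.28, 4.78, 4.82 and 5.26 in IL-22-Fc wounds and 6.02, 5.71 and 5.51 in PDGF wounds, and the call was lost without PDGF replicate 1 (adjusted p = 0.0904).

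**Figure D1:**
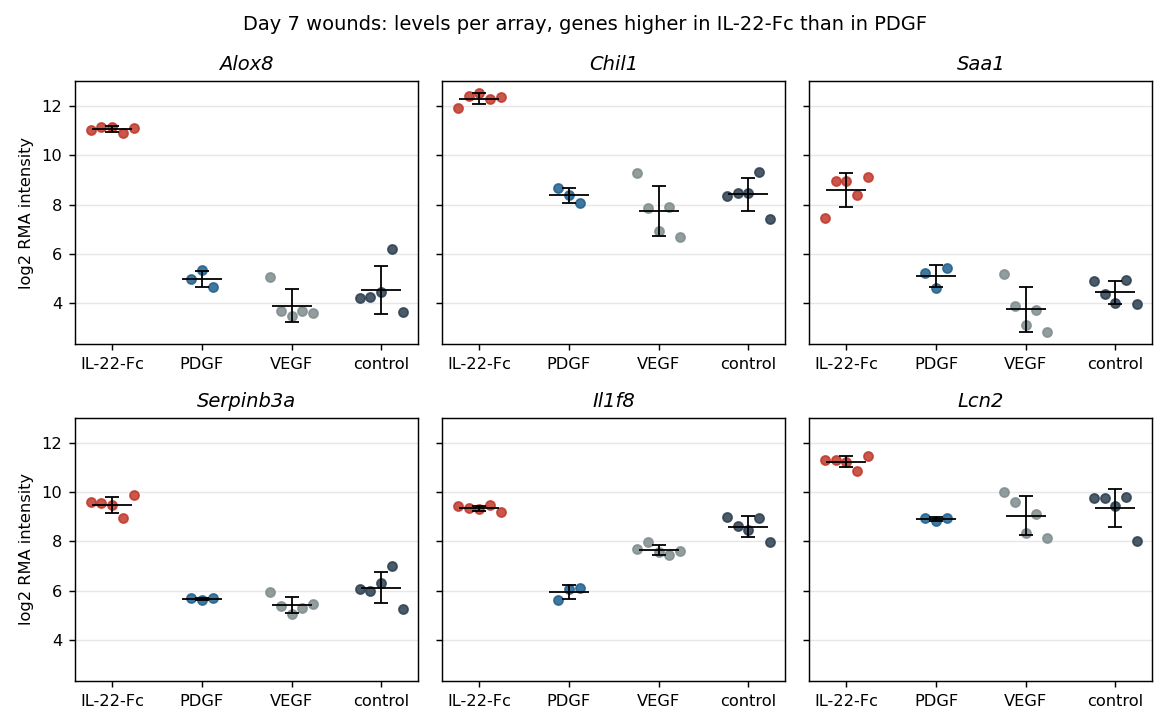
Log2 level of 6 genes on each day 7 array, by group, with the mean and SD of the group in black (IL-22-Fc n = 5, PDGF n = 3, VEGF n = 5, control n = 5). For every gene the 5 IL-22-Fc arrays lie above the 3 PDGF arrays; in Il1f8 the PDGF arrays (5.61 to 6.12) also lie below the control arrays (7.97 to 9.00), whereas in Alox8 they do not.

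The 3 IL-36 cytokines, IL-1 family members through which keratinocytes recruit leukocytes, were all higher in IL-22-Fc wounds. Il1f8, which encodes IL-36 beta, was at 9.42, 9.33, 9.31, 9.45 and 9.17 in IL-22-Fc wounds and at 5.61, 6.05 and 6.12 in PDGF wounds (10.6-fold, log2 3.41, SE 0.18, adjusted p = 1.95e-11). Both sides of this difference were visible against control wounds (mean 8.59), since IL-22-Fc wounds were 0.74 above and PDGF wounds were lower, at -2.66. Il1f9 (IL-36 gamma) was at 9.88, 10.31, 10.27, 10.50 and 10.24 in IL-22-Fc wounds, against 7.46, 8.09 and 7.90 in PDGF wounds (5.36-fold, adjusted p = 1.81e-07). Il1f6 (IL-36 alpha) was 4.77-fold higher, with 10.38, 9.81, 10.07, 9.82 and 10.18 in IL-22-Fc wounds and 7.49, 8.10 and 7.80 in PDGF wounds. Il33, an alarmin stored in keratinocyte nuclei, was 1.91-fold higher (adjusted p = 0.0222), a call lost without PDGF replicate 1 (adjusted p = 0.13), and the difference turned to -1.22 with the 5' covariate. Over the 13 IL-36 and IL-1 family genes measured, 5 were called higher and 1 lower, with a median of 0.70. With the 5' covariate 1 was called higher, against 0.513% of all probe sets, and the median was -0.54. The lower one, Il1f10 (IL-38, an antagonist), was at 6.01, 5.32, 5.14, 6.12 and 5.66 in IL-22-Fc wounds and 6.36, 6.12 and 6.39 in PDGF wounds, groups that overlapped, and the change was under 1.5-fold without IL-22-Fc replicate 2 (log2 -0.56) or replicate 3 (log2 -0.51).

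Protease inhibitors of the epidermis rose together. Of 17 measured, 14 were called higher and none lower, and their median difference was 1.23. In IL-22-Fc wounds 7 of them were above control, and in PDGF wounds 1 was above and 5 were below. Over all probe sets 1.49% were above control in IL-22-Fc wounds, and 6.47% above and 9.56% below in PDGF wounds. With the 5' covariate 1 of the 17 was called higher, against 0.513% of all probe sets. Serpinb3a, a serpin that inhibits cysteine and serine proteases, had 9.60, 9.54, 9.45, 8.94 and 9.86 in IL-22-Fc wounds and 5.70, 5.63 and 5.69 in PDGF wounds (14.0-fold, log2 3.81, SE 0.26, adjusted p = 7.3e-10). No array of the PDGF group came near the IL-22-Fc group. Spink12, a Kazal-type inhibitor, was at 9.37, 9.38, 9.50, 9.32 and 9.45 in IL-22-Fc wounds and 7.07, 6.96 and 6.62 in PDGF wounds (5.73-fold, adjusted p = 2.67e-05). Serpinb2, an inhibitor of plasminogen activators, and Serpinb12 were 3.77-fold and 3.73-fold higher. The proteases that such inhibitors face in the epidermis, the kallikreins, moved less far in the same direction, with 5 of 10 called higher, none lower and a median of 0.50. Klk8, known for shedding of surface keratinocytes, was at 10.77, 10.64, 10.57, 10.83 and 10.56 in IL-22-Fc wounds and 9.45, 9.95 and 9.63 in PDGF wounds (log2 1.00, adjusted p = 3.05e-06). Klk9 and Klk6 were 0.97 and 0.78 higher, with adjusted p = 0.000194 and 0.00049.

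Of 28 enzymes of epidermal lipid metabolism, 10 were called higher, Alox8 among them, and 4 lower (median 0.26). Pla2g4e, a calcium-dependent phospholipase A2, was at 8.98, 8.68, 8.98, 8.61 and 8.62 in IL-22-Fc wounds, against 7.44, 7.60 and 7.48 in PDGF wounds (2.41-fold, adjusted p = 3.41e-06). Sdr9c7, a dehydrogenase needed for the lipid envelope of corneocytes, and Lipk, a lipase of late differentiation, were 1.72 and 1.51 higher, but in both the control wounds (means 8.10 and 7.58) were nearer to the IL-22-Fc wounds. The secreted phospholipase Pla2g2e went the other way, with 5.70, 5.74, 6.21, 5.85 and 5.91 in IL-22-Fc wounds and 7.35, 7.10 and 7.43 in PDGF wounds (log2 -1.41, adjusted p = 2.41e-08).

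Neutrophil genes were split. Cxcr2, the receptor by which neutrophils follow CXC chemokines, was at 7.25, 7.53, 7.56, 7.13 and 7.33 in IL-22-Fc wounds and 6.36, 6.14 and 5.69 in PDGF wounds (2.45-fold, adjusted p = 0.000226). The groups did not overlap, and control wounds (mean 5.91) were at the level of the PDGF wounds. Of 16 neutrophil genes, 5 were called higher and 2 lower (median 0.20), against 10.2% and 7.74% of all probe sets. Of the 5, Lcn2, S100a8 and S100a9 are also made by keratinocytes and stand in the antimicrobial list. None of the 8 genes for CXCR2 ligands and G-CSF was called in either direction (median 0.15). With the 5' covariate no gene of either list was called. The medians with it were -0.83 and -2.29, both uncertain because the covariate follows the PDGF group. The summed linear intensity of the neutrophil list was 49733 to 54042 in IL-22-Fc wounds and 21727 to 23479 in PDGF wounds. Genes of high level weigh most in such a sum. S100a9 alone was at 14.34 to 14.45 on the log2 scale in IL-22-Fc wounds and 12.73 to 12.89 in PDGF wounds, while 9 of the 16 genes were not called. The part of neutrophil number in the antimicrobial increase was not tested.

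On the other side of the comparison stood genes that were high in PDGF wounds only. Rnase2a, a ribonuclease of the eosinophil-associated family, was at 3.15, 3.10, 3.47, 3.27 and 3.15 in IL-22-Fc wounds, all background, against 11.97, 11.80 and 12.11 in PDGF wounds. The groups were far apart, and the PDGF wounds were as far above the VEGF and control wounds (means 3.75 and 3.61). The fitted difference was -8.73 (SE 0.24, adjusted p = 3.1e-15) and -7.51 with the 5' covariate, and it is a difference from background in IL-22-Fc wounds. Retnla, a resistin-like secreted protein and a classical mark of alternatively activated macrophages, was at 7.79, 7.12, 7.47, 6.33 and 6.93 in IL-22-Fc wounds, against 13.38, 13.08 and 13.40 in PDGF wounds (71.4-fold lower, log2 -6.16, SE 0.34, adjusted p = 3.12e-11). Here the 2 groups lay on opposite sides of the control wounds (mean 8.15), IL-22-Fc wounds at -1.02 and PDGF wounds at 5.14 relative to them, both called. Retnla is also high in unwounded skin, at 9.42 to 10.57 on 4 arrays and 11.70 on the array with the low 5' level.

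Ccl24 (eotaxin-2), a chemokine for eosinophils, was at 6.48, 7.03, 7.05, 6.81 and 6.98 in IL-22-Fc wounds and 11.66, 10.77 and 11.08 in PDGF wounds (19.7-fold lower, adjusted p = 1.51e-12). Slc7a2, a transporter of arginine and other cationic amino acids, was at 5.09, 5.13, 5.40, 5.16 and 5.14 in IL-22-Fc wounds and 9.81, 9.42 and 9.75 in PDGF wounds (22.2-fold lower, adjusted p = 4.01e-11). Pdcd1lg2, which encodes the PD-1 ligand PD-L2, was at 4.02, 3.71, 4.40, 4.42 and 4.24 in IL-22-Fc wounds and 7.71, 7.48 and 7.41 in PDGF wounds (log2 -3.37, adjusted p = 5.51e-12). In all 3 genes the PDGF wounds stood alone, with control means of 7.12, 5.11 and 3.84 close to the IL-22-Fc wounds. Chil4, a chitinase-like protein known as Ym2, was at 4.07, 4.08, 3.98, 4.30 and 3.85 in IL-22-Fc wounds, against 7.66, 8.31 and 7.98 in PDGF wounds (log2 -3.92, adjusted p = 1.62e-14). Its near copy Chil3 (Ym1) was well expressed in every wound, at 10.96, 11.03, 10.39, 11.39 and 10.86 in IL-22-Fc wounds and 13.62, 13.67 and 13.60 in PDGF wounds, and was 6.51-fold lower (adjusted p = 4.7e-06). Because the 2 transcripts are alike, either probe set may read some of the other.

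**Figure D2:**
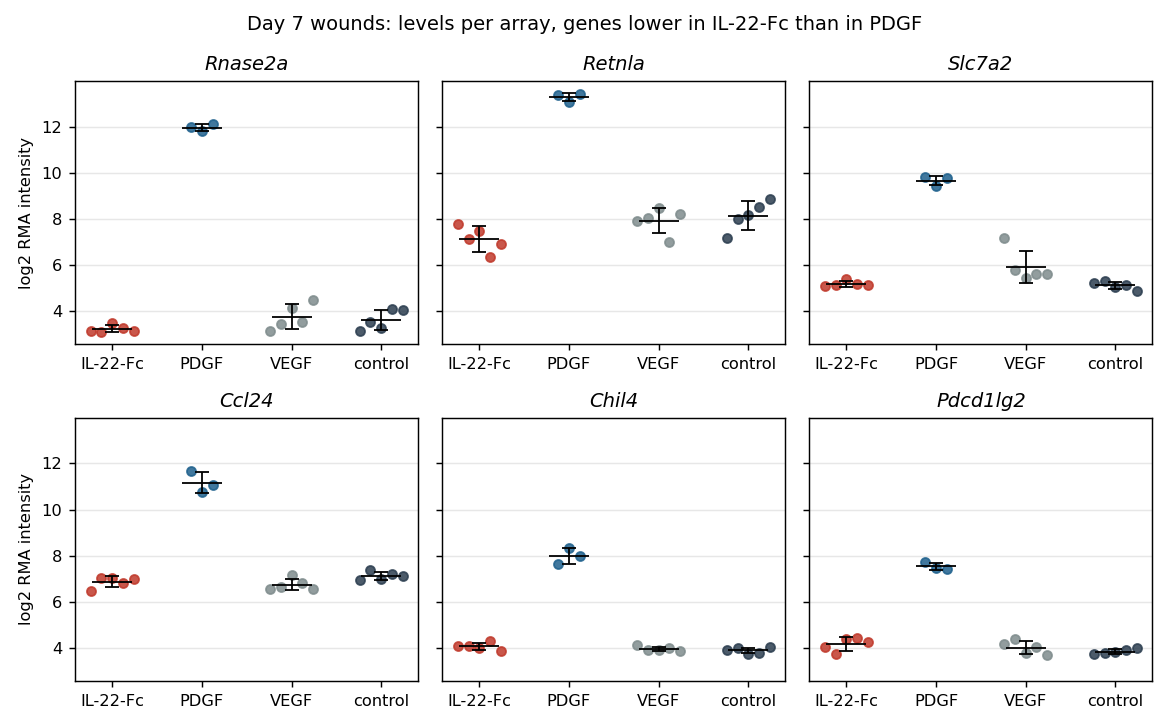
Log2 level of 6 genes on each day 7 array, by group, with the mean and SD of the group in black (IL-22-Fc n = 5, PDGF n = 3, VEGF n = 5, control n = 5). The PDGF arrays stand above every other array in each gene, with means between 7.53 for Pdcd1lg2 and 13.29 for Retnla.

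The chitinase-like and resistin-like families did not move as families. Chil1 was higher and Chil3 and Chil4 were lower in IL-22-Fc wounds. The true chitinase Chit1 was at 8.99 to 9.57 in IL-22-Fc wounds and 8.94 to 9.10 in PDGF wounds, and Chia1 at 4.46 to 4.90 in IL-22-Fc wounds and 4.27 to 4.84 in PDGF wounds, so both overlapped. Retn, resistin itself, a product of fat cells in the mouse, was at 6.92 to 7.59 in IL-22-Fc wounds and 6.81 to 7.55 in PDGF wounds. Retnlb was near background in both groups, at 3.49 to 3.82 in IL-22-Fc wounds and 3.97 to 4.25 in PDGF wounds.

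Promoters are shown for 5 genes that were lower in IL-22-Fc wounds and for Il1f9, which was higher. They were chosen because they hold a match, and were looked at because STAT3, the signal of IL-22, and STAT6, the signal of IL-4 and IL-13, prefer sites that differ by 1 base. Each runs from 250 bases before to 50 bases after the start of the gene in RefSeq (GRCm38.p6), 5' to 3' on the strand of the gene. Capitals mark TTCNNNGAA, the usual spacing for STAT proteins, and TTCNNNNGAA, the spacing STAT6 prefers. Both motifs read the same on either strand and were searched in all positions.
Retnla, chr16:48842359-48842658, plus strand: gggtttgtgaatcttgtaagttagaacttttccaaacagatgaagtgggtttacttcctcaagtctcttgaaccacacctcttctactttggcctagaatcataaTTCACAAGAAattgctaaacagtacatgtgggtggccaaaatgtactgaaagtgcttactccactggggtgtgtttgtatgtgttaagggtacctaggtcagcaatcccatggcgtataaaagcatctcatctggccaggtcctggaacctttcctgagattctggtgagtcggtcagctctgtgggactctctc
Pdcd1lg2, chr19:29410669-29410968, plus strand: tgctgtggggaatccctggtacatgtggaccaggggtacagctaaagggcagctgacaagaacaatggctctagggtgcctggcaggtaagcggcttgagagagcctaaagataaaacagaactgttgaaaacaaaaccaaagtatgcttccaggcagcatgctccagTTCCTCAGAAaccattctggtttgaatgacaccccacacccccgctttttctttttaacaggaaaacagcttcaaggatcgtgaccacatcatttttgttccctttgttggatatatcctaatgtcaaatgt
Cd209e, chr8:3854237-3854536, minus strand: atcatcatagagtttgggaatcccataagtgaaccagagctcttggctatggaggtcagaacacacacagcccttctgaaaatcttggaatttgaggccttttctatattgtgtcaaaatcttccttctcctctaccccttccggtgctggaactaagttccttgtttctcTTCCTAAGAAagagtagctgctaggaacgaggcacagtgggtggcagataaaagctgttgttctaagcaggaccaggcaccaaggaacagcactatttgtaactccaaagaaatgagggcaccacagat
Chil3, chr3:106167515-106167814, minus strand: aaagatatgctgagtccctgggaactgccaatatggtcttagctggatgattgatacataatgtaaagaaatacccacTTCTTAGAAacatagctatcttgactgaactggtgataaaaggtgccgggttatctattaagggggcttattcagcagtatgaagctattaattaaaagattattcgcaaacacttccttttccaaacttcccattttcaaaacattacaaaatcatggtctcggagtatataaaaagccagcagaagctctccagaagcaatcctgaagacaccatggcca
Chil4, chr3:106219430-106219729, minus strand: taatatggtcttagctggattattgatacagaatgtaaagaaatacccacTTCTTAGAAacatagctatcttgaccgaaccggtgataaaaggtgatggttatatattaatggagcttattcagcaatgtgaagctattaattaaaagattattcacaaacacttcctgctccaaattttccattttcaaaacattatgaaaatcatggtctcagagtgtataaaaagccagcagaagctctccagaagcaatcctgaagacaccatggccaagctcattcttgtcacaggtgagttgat
Il1f9, chr2:24186226-24186525, plus strand: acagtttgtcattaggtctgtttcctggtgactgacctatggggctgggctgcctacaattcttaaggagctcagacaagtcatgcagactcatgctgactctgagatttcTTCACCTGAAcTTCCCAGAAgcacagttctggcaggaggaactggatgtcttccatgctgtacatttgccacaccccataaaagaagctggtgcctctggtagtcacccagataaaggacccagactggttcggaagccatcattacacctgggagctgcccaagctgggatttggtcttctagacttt
The STAT6 spacing begins 145 bases before the start in Retnla, 82 in Pdcd1lg2 and 79 in Cd209e. Chil3 and Chil4 hold the same 9 letters of the shorter spacing, 172 and 200 bases before their listed starts, and the 2 windows are equal at 200 of 272 bases (73.5%) when shifted by 28. Il1f9 holds both spacings, which overlap at no base. The promoter of Chil1 holds neither. Among the 12 genes with the largest changes in each direction, TTCNNNNGAA stood in 2 and TTCNNNGAA in 1 of the 9 promoters given for genes lower in IL-22-Fc wounds, and either in 0 of the 11 given for genes higher. Over the genes called lower, 5.71% of 1225 promoters held TTCNNNNGAA, and over the genes called higher 4.79% of 1607, against 5.72% of the 14221 promoters of all genes on the arrays and 6.95% of all 32851 promoters. For TTCNNNGAA the shares were 5.71% of the genes called lower and 7.53% of those called higher, against 7.29% on the arrays and 8.3% of all. The shares among called genes were close to those of all genes on the arrays, and a match is a description of letters, not of binding.

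Alternatively activated macrophage genes as a list lay below zero. Of 29 measured, 20 were called lower in IL-22-Fc wounds and 3 higher, with a median of -0.76. Against control wounds, 17 genes of the list were called higher in PDGF wounds (6.47% of all probe sets). In IL-22-Fc wounds 1 was called lower than in control wounds (0.803% of all probe sets). With the 5' covariate 4 of the 29 were called lower, against 0.193% of all probe sets. Cd209e, a C-type lectin of the DC-SIGN family, was at 5.43, 5.54, 6.53, 5.06 and 5.82 in IL-22-Fc wounds and 8.74, 8.06 and 8.81 in PDGF wounds (7.27-fold lower, adjusted p = 9.47e-08). Cd163, the scavenger receptor for haemoglobin, was at 11.60, 11.82, 11.41, 11.81 and 11.63 in IL-22-Fc wounds, against 13.07, 12.97 and 13.03 in PDGF wounds (log2 -1.37, adjusted p = 6.38e-07). Both groups were narrow and did not meet. The chemokine gene Ccl8 and the mannose receptor Mrc1 were -1.20 and -0.67 on the log2 scale (adjusted p = 4.09e-09 and 8.05e-05). Against this direction, Lyve1, a hyaluronan receptor of lymphatic vessels and of some resident macrophages, was higher, at 9.66, 9.35, 8.69, 8.21 and 8.45 in IL-22-Fc wounds and 6.56, 7.64 and 8.47 in PDGF wounds. These 2 groups overlapped, and the call (adjusted p = 0.00545) was lost without PDGF replicate 1 (adjusted p = 0.0819). Cd209e was also high in the unwounded skin sample with a low 5' level (8.01, against 6.68 to 7.23 on the others).

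The cytokines and cells that go with this programme were little seen. Il4 was at 3.54 to 3.94 in IL-22-Fc wounds and 3.55 to 3.98 in PDGF wounds, and Il13 at 3.71 to 4.06 in IL-22-Fc wounds and 3.98 to 4.26 in PDGF wounds, both near background with overlapping groups. Of 15 type 2 cytokine and receptor genes, 3 were called higher and 1 lower (median -0.12), against 10.2% and 7.74% of all probe sets. Il13ra1, a receptor chain for IL-13, was 1.28 higher (adjusted p = 1.72e-06), with 9.29, 9.42, 9.34, 9.29 and 9.13 in IL-22-Fc wounds and 8.12, 8.04 and 7.87 in PDGF wounds. Il4ra overlapped between the groups (log2 -0.19, adjusted p = 0.68), and Stat6 was at -0.36 (adjusted p = 0.0101), under the fold threshold. As for eosinophils, 4 of the 9 genes of their list were at background on every array of both groups. Their granule proteins Epx and Prg2 and the surface lectin Siglecf reached at most 3.57, 3.57 and 3.48 on any IL-22-Fc or PDGF array. The eosinophil-associated ribonucleases went in opposite directions, since Rnase2b was higher in IL-22-Fc wounds (11.30, 11.35, 11.39, 11.24 and 11.85, against 9.01, 9.68 and 9.86 in PDGF wounds, adjusted p = 6.36e-08) while Rnase2a was lower. Ear3, another member of that family, was -3.45 on the log2 scale (adjusted p = 4.37e-09). These genes are near-identical copies, and which transcript each probe set reads is uncertain. Alox15, a lipoxygenase of eosinophils and alternatively activated macrophages, was at 3.65, 3.75, 4.01, 4.11 and 3.74 in IL-22-Fc wounds and 5.38, 5.94 and 5.22 in PDGF wounds (log2 -1.66, adjusted p = 2.35e-06).

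General macrophage genes moved less. Of 25 monocyte and macrophage genes, 6 were called lower in IL-22-Fc wounds and 2 higher (median -0.29). Adgre1, a surface receptor that marks mouse macrophages, was at 9.01 to 9.57 in IL-22-Fc wounds and 9.31 to 9.56 in PDGF wounds. Laptm5, a lysosomal protein of white blood cells, was at 9.25, 9.19, 9.29, 9.12 and 9.35 in IL-22-Fc wounds and 10.74, 10.68 and 10.61 in PDGF wounds (log2 -1.44, adjusted p = 5.44e-09). Cd68, a lysosomal glycoprotein of phagocytes, was -1.22 and Csf1r, the receptor for the macrophage growth factor CSF-1, -0.94 on the log2 scale, with adjusted p = 5.02e-07 and 1.04e-07. The summed intensity of the list was 56174 to 62560 in IL-22-Fc wounds and 61177 to 68123 in PDGF wounds, ranges that overlapped.

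Lysosomal genes followed the same direction, with 14 of 31 called lower, 2 higher and a median of -0.41, and none called with the 5' covariate. Atp6v0d2, a proton pump subunit of macrophages and osteoclasts, was at 8.25, 7.92, 8.54, 8.18 and 8.57 in IL-22-Fc wounds and 10.30, 10.38 and 10.25 in PDGF wounds (4.04-fold lower, adjusted p = 6.77e-06). Ctsl, the protease cathepsin L, was -1.64 (adjusted p = 3.23e-08). Another pump subunit, Atp6v1a, was higher instead (10.86, 10.78, 10.74, 10.91 and 10.59 in IL-22-Fc wounds, against 9.13, 9.34 and 9.41 in PDGF wounds, adjusted p = 8.43e-10), and it was also low in the unwounded skin sample with a low 5' level (8.74, against 10.17 to 10.47 on the others).

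Several antigen presentation genes were lower in IL-22-Fc wounds. H2-Ab1 and H2-Aa, the chains of an MHC class II molecule, were -1.42 and -1.26 on the log2 scale (adjusted p = 2.26e-07 and 3.99e-06). Cd74, the invariant chain that guides them, was at 10.97, 11.22, 11.62, 11.24 and 11.42 in IL-22-Fc wounds and 12.48, 12.53 and 12.46 in PDGF wounds (log2 -1.20, adjusted p = 3.4e-06). Itgax, which encodes CD11c of dendritic cells and some macrophages, was at 6.93, 6.70, 7.08, 6.96 and 7.22 in IL-22-Fc wounds and 8.75, 9.32 and 9.25 in PDGF wounds (4.38-fold lower, adjusted p = 7.19e-06). None of these 4 genes overlapped. The costimulatory molecule Cd86 was higher instead, with 6.21, 6.45, 6.32, 6.52 and 6.35 in IL-22-Fc wounds and 4.602, 5.08 and 5.12 in PDGF wounds (log2 1.44, adjusted p = 2.21e-07). Its mean in control wounds was 6.47, near the IL-22-Fc wounds, so only the PDGF wounds were low. In all, 6 of 14 dendritic and Langerhans cell genes were called lower, 1 higher and 7 in neither direction (median -0.37). The summed intensity of that list was 5348 to 7878 in IL-22-Fc wounds and 14221 to 16107 in PDGF wounds. Genes of high level weigh most in it, such as Cd74 and H2-Aa with means of 12.49 and 11.94 in PDGF wounds.

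Syk, the kinase behind many C-type lectin and Fc receptors, was at 7.05, 6.54, 6.64, 6.79 and 6.99 in IL-22-Fc wounds and 8.35, 8.29 and 8.16 in PDGF wounds (2.76-fold lower, adjusted p = 3.53e-07), a call that held with the 5' covariate (log2 -2.28). Btk, a kinase further along that route, was -0.91 (adjusted p = 3.61e-06). The route was not lower throughout, since Clec5a, a Syk-coupled lectin receptor, was higher, at 6.55, 5.91, 6.13, 6.06 and 6.32 in IL-22-Fc wounds and 4.08, 4.68 and 3.79 in PDGF wounds (adjusted p = 2.88e-08). Over 16 genes of Syk and C-type lectin signalling, 4 were called higher and 6 lower (median -0.28).

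Cornified envelope and late differentiation genes moved both ways, with 9 of 47 called higher, 12 lower and a median of 0.06 (-0.12 with the 5' covariate). Those named here as lower were low in IL-22-Fc wounds against control wounds as well. Krt77, a keratin of eccrine ducts and epidermis, was at 8.05, 8.87, 9.77, 8.66 and 8.67 in IL-22-Fc wounds and 12.05, 12.81 and 12.40 in PDGF wounds (log2 -3.62, SE 0.27, adjusted p = 1.55e-09), and control wounds averaged 12.39. Loricrin (Lor), the main protein of the cornified envelope, was at 11.23, 10.54, 10.96, 10.96 and 10.58 in IL-22-Fc wounds and 13.33, 13.52 and 13.42 in PDGF wounds (5.93-fold lower, adjusted p = 1.69e-11). Lce1m, a late cornified envelope protein, was 11.2-fold lower (adjusted p = 6e-10). All 3 genes were as high in PDGF wounds as in control wounds, to within 0.35 on the log2 scale. Krt2, the keratin of the upper spinous layer, was at 3.03, 3.65, 3.58, 3.78 and 3.54 in IL-22-Fc wounds, close to background, and 4.62, 5.76 and 9.18 in PDGF wounds. Its PDGF arrays were far apart, and the call (adjusted p = 0.00493) was lost without PDGF replicate 3 (log2 -1.67, adjusted p = 0.0745). Ivl, involucrin, was -0.85 (adjusted p = 0.0152), a call lost without PDGF replicate 2 (adjusted p = 0.0929), and its difference was 0.13 with the 5' covariate. Both IL-22-Fc and PDGF wounds were below control wounds, at -2.24 and -1.39.

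Higher members included Dsc1, the desmosomal cadherin of the upper epidermis, with 10.50, 10.52, 10.44, 10.52 and 10.22 in IL-22-Fc wounds and 7.52, 7.71 and 7.56 in PDGF wounds (7.15-fold, log2 2.84, adjusted p = 1.23e-09). Another probe set of Dsc1 gave a log2 difference of 1.39 (adjusted p = 1.68e-07). Tgm3, a transglutaminase that cross-links the envelope, was at 9.98, 9.40, 9.56, 9.21 and 9.33 in IL-22-Fc wounds and 7.48, 7.18 and 7.20 in PDGF wounds (4.64-fold, adjusted p = 1.41e-07). The small proline-rich gene Sprr2i was 5.74-fold higher (adjusted p = 0.00827). Dsc1 was below control in PDGF wounds (-1.88), whereas Tgm3 and Sprr2i were above control in IL-22-Fc wounds (2.08 and 3.74). Among 16 basal keratinocyte genes, 3 were called higher and 2 lower (median 0.18, and -0.29 with the 5' covariate). Krt15, a basal keratin of resting skin, was lower, at 9.35, 10.35, 10.69, 10.56 and 10.52 in IL-22-Fc wounds and 11.58, 11.98 and 11.79 in PDGF wounds (adjusted p = 1.14e-05).

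Junction genes and epidermal transcription factors had several members higher in IL-22-Fc wounds. Of 19 junction genes, 8 were called higher and 2 lower (median 0.45), and none was called in IL-22-Fc wounds against control. Dsc3 and Dsp, a desmosomal cadherin and the plaque protein that ties it to keratin, were 5.05-fold and 3.74-fold higher (adjusted p = 7.43e-10 and 3.51e-07). For both the change lay on the PDGF side, at -2.13 and -1.52 relative to control, and Dsp turned to -0.13 in the added fit of all 42 arrays with the 5' covariate. Ehf, an ETS factor of epithelia, was at 9.07, 9.24, 9.39, 9.09 and 9.17 in IL-22-Fc wounds, against 6.97, 7.19 and 6.84 in PDGF wounds (4.57-fold, adjusted p = 2.26e-10), and it rose over control wounds in the IL-22-Fc group (1.56). Grhl3, a grainyhead factor of barrier formation and wound closure, was 1.11 higher (adjusted p = 0.000419), but turned to -0.36 with the 5' covariate. Epgn, a ligand of the EGF receptor, was at 10.16, 9.31, 9.40, 8.58 and 8.61 in IL-22-Fc wounds and 7.37, 7.13 and 6.89 in PDGF wounds (4.23-fold, adjusted p = 0.00561), and with the 5' covariate its difference turned to -1.61 on the log2 scale. In all, 5 of 16 transcription factors were called higher and 1 lower, and 7 of 20 genes of keratinocyte activation higher and 1 lower. For the keratinocyte activation list the median was 0.51, and with the 5' covariate it was -0.61 with no gene called.

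**Figure D3:**
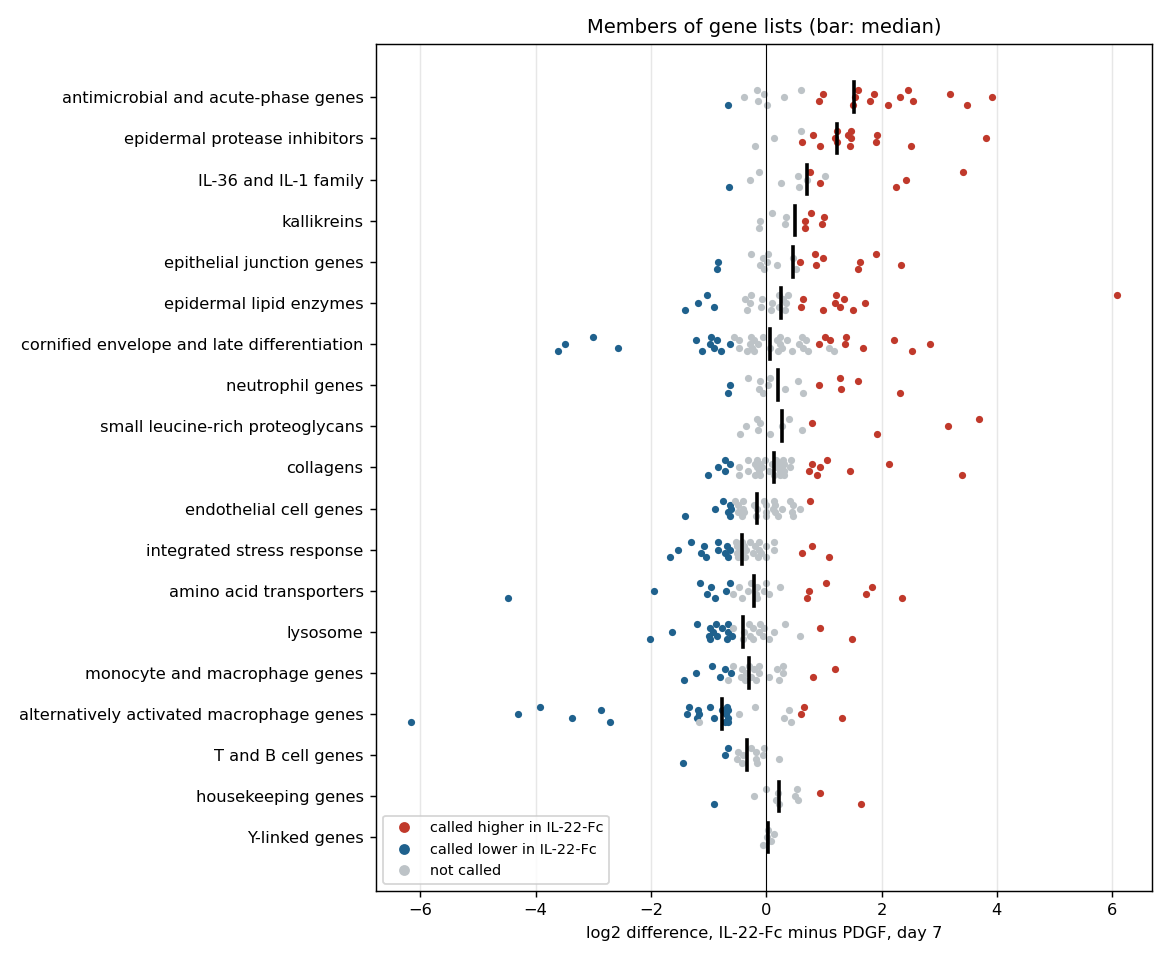
Log2 difference between IL-22-Fc and PDGF wounds on day 7 for each member of 19 gene lists, one dot per gene, with the list's median as a black bar; colours mark genes called higher, lower or not called. The medians run from 1.52 for the antimicrobial and acute-phase genes to -0.76 for the alternatively activated macrophage genes, and the Y-linked genes lie at 0.03.

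No signalling chain of the receptors for IL-22 or PDGF was called. Il22ra1, the signalling chain for IL-22, was at 6.44, 6.42, 6.23, 6.29 and 6.17 in IL-22-Fc wounds and 6.04, 5.78 and 5.72 in PDGF wounds, a difference of 0.46 (adjusted p = 0.00835) that was under the fold threshold. Il10rb, its partner, was at -0.47 (adjusted p = 0.00647), also under it. Il22ra2, a soluble protein that captures IL-22, was higher, at 7.57, 8.30, 8.25, 8.07 and 8.13 in IL-22-Fc wounds and 6.60, 6.90 and 6.81 in PDGF wounds (2.46-fold, adjusted p = 1.02e-05), but at -0.68 on the log2 scale in all 42 arrays with the 5' covariate. Il20rb, the chain shared by IL-19, IL-20 and IL-24, was lower by a margin close to the threshold (log2 -0.60, adjusted p = 0.000714), and it fell under 1.5-fold without IL-22-Fc replicate 1 or 4 or PDGF replicate 2. Of 20 genes of the STAT3 pathway, 1 was called higher and 3 lower (median -0.11), against 10.2% and 7.74% of all probe sets. Osmr, the receptor for oncostatin M, was the higher one (2.24-fold, adjusted p = 0.000146). Pim1, a kinase induced by STAT signalling, was at 8.17, 7.96, 8.16, 7.89 and 8.02 in IL-22-Fc wounds and 9.25, 9.18 and 8.98 in PDGF wounds (log2 -1.10, adjusted p = 4.29e-06), and Il6ra, the receptor for IL-6, was -0.74 (adjusted p = 2.09e-05).

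Of the 7 PDGF ligands and receptors, 2 were called higher and 1 lower. Pdgfd, a ligand for PDGFRb, was at 4.32, 4.65, 4.92, 4.47 and 4.41 in IL-22-Fc wounds and 2.89, 2.76 and 2.91 in PDGF wounds, where all arrays were at background (adjusted p = 4.97e-09). Pdgfb, the ligand whose dimer was applied, was lower in IL-22-Fc wounds, at 6.67, 6.77, 6.86, 6.95 and 6.76 against 7.56, 7.63 and 7.55 in PDGF wounds (log2 -0.78, adjusted p = 0.000255). Pdgfra was at -0.52 and Pdgfrb at -0.38 (adjusted p = 0.00123 and 0.0166), Pdgfa at -0.18 and Pdgfc at -0.48 (adjusted p = 0.25 and 0.00578). Pdgfrl, a receptor-like protein without a kinase domain, was 0.65 higher (adjusted p = 0.00749), and its call was lost without PDGF replicate 1 (log2 0.43).

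Several dermal matrix genes were low in PDGF wounds. Aspn, a small leucine-rich proteoglycan that binds collagen and TGF-beta, was at 9.98, 10.52, 10.60, 10.84 and 10.64 in IL-22-Fc wounds, against 5.75, 7.27 and 7.45 in PDGF wounds (12.9-fold, adjusted p = 5.22e-09). Col11a1, a collagen chain of fibril nucleation, was at 6.79, 7.07, 6.52, 6.49 and 6.98 in IL-22-Fc wounds and 3.00, 3.62 and 3.47 in PDGF wounds, at background there (3.40 on the log2 scale, adjusted p = 5.66e-09). In both genes the IL-22-Fc wounds were near control (differences of -0.49 and -0.43) and the PDGF wounds below it (-4.18 and -3.83). Ogn and Lum, of the same proteoglycan family as Aspn, were 8.87-fold and 3.78-fold higher in IL-22-Fc wounds (adjusted p = 1.33e-09 and 2.9e-07). Col3a1, a main fibrillar collagen of granulation tissue, was at 12.77, 13.001, 12.96, 13.03 and 13.09 in IL-22-Fc wounds and 10.85, 11.62 and 12.10 in PDGF wounds (2.73-fold, adjusted p = 1.36e-06). Col1a1, the chain of type I collagen, was 0.73 higher (adjusted p = 0.00193), but under 1.5-fold without PDGF replicate 1 (log2 0.50). The enzyme Lox, which cross-links collagen, was 1.69 higher (adjusted p = 8.24e-10), and -0.052 in all 42 arrays with the 5' covariate.

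Matrix genes did not all share that direction. Col5a3 was -1.02 (adjusted p = 0.000571), and Mmp12, the elastase of macrophages, was at 7.74, 7.85, 7.97, 8.11 and 8.19 in IL-22-Fc wounds and 9.32, 10.12 and 9.74 in PDGF wounds (3.37-fold lower, adjusted p = 0.00016). Over 41 collagen genes, 8 were called higher and 5 lower (median 0.13, and -0.20 with the 5' covariate), over 25 fibroblast genes 9 and 5 (median 0.09), over 13 small leucine-rich proteoglycans 4 and 0 (median 0.28), and over 30 matrix enzymes and inhibitors 7 and 5 (median -0.05). Of all probe sets, 10.2% were called higher and 7.74% lower. Rgs5, a regulator of G protein signalling in pericytes, was at 8.44, 8.23, 8.18, 8.09 and 8.00 in IL-22-Fc wounds and 5.29, 6.22 and 6.07 in PDGF wounds (5.02-fold higher, adjusted p = 5.62e-09). Vwf, the platelet-binding protein of endothelium, was lower, at 6.54, 6.70, 6.63, 6.67 and 6.79 in IL-22-Fc wounds and 8.12, 8.17 and 7.93 in PDGF wounds (log2 -1.41, adjusted p = 1.45e-09). Of 33 endothelial genes, 7 were called lower and 1 higher (median -0.16), against 7.74% and 10.2% of all probe sets. The vessel genes Esm1 (log2 0.59, adjusted p = 0.0574) and Col18a1 (log2 0.31, adjusted p = 0.0278) were not called. Edn1 was at 5.55 to 6.09 in IL-22-Fc wounds and 5.57 to 6.29 in PDGF wounds, and Mgp at 8.22 to 9.35 in IL-22-Fc wounds and 7.95 to 8.66 in PDGF wounds, so both overlapped.

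Genes of the integrated stress response, by which cells short of amino acids raise amino acid uptake and synthesis, were called lower more often than higher in IL-22-Fc wounds. Of 36 measured, 12 were called lower and 3 higher (median -0.42), none of them with the 5' covariate. In PDGF against control wounds 13 were called higher and 2 lower (6.47% and 9.56% of all probe sets). Fgf21, a hormone that this response induces, was at 5.33, 4.86, 5.42, 4.94 and 5.33 in IL-22-Fc wounds and 7.21, 6.76 and 6.18 in PDGF wounds (2.91-fold lower, adjusted p = 7.08e-07). Cth, which makes cysteine, was at 5.71, 5.42, 5.13, 5.50 and 5.27 in IL-22-Fc wounds, against 7.31, 6.97 and 6.96 in PDGF wounds (log2 -1.67, adjusted p = 9.74e-07). Trib3, a pseudokinase target of ATF4, and Pck2, a mitochondrial carboxykinase, were -1.13 and -1.31 (adjusted p = 5.23e-08 and 4.07e-07). For 3 of these 4 genes the IL-22-Fc wounds were within 0.35 of control on the log2 scale, and only Cth was called above it (0.96). The tRNA synthetase gene Iars was higher instead (1.10, adjusted p = 4.28e-08).

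Amino acid transporters split by gene, with 6 of 26 called higher and 8 lower, against 10.2% and 7.74% of all probe sets. Besides Slc7a2, its relative Slc7a3 was lower, at 4.68, 4.22, 4.35, 4.57 and 4.25 in IL-22-Fc wounds and 6.82, 6.18 and 6.08 in PDGF wounds (3.86-fold, adjusted p = 2.38e-09). Slc6a14, a broad transporter of epithelia, was higher, at 8.85, 8.29, 8.79, 8.37 and 8.10 in IL-22-Fc wounds and 6.17, 6.18 and 6.02 in PDGF wounds (5.13-fold, adjusted p = 7.54e-08). Slc7a11, the cystine importer, was 3.55-fold higher (adjusted p = 0.00742) and was 2.02 above control in IL-22-Fc wounds. Of the remaining genes with the largest changes, Cxcl13, a B cell chemokine, Vsig4, a complement receptor of resident macrophages, and Rp2, a GTPase-activating protein, were 3.81, 3.64 and 3.50 higher (adjusted p = 4.68e-09, 6.18e-12 and 4.56e-12). In all 3 the PDGF wounds lay below control (-3.24, -3.97 and -3.60). Rp2 was at background on all PDGF arrays (3.10 to 3.24), so its values are differences from background. Ramp3, a partner of the adrenomedullin receptor, and Ddx4, an RNA helicase of germ cells, were -3.44 and -3.11 (adjusted p = 4.56e-12 and 2.39e-08). Ddx4 was at 2.46, 2.58, 2.52, 2.54 and 2.50 in IL-22-Fc wounds, all background, and at 6.61, 5.92 and 4.36 in PDGF wounds, 3 arrays far apart.

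The same contrast was measured at 24 h, with 5 arrays in each group. There 422 probe sets were called higher (2.04%) and 152 lower (0.735%), or 2.78% in all. Alox8 was already higher at 24 h (3.35, adjusted p = 1.98e-05), and so was Chil1 (1.69, adjusted p = 0.000223). Both grew by day 7, by 2.73 and 2.22 (adjusted p = 0.000374 and 0.00062 for the difference between the times). Rnase2a, Retnla and Pdcd1lg2 had 24 h differences of -0.01, -0.01 and 0.10, none called. Ccl24 was called higher at 24 h (0.77), the reverse of day 7. Likewise Lcn2 (-0.67), Saa3 (-1.11), Cxcr2 (-0.75) and Clec5a (-0.84) were called lower in IL-22-Fc wounds at 24 h and higher on day 7. Over all probe sets the day 7 difference was above that at 24 h for 2094 (10.1%) and below it for 2230 (10.8%). In all these were 4324 probe sets (20.9%), and 72 with the 5' covariate.

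The 6 genes with the greatest gain between the times were not called higher in IL-22-Fc than in control wounds. Rp2, at background in PDGF wounds of day 7, gained 3.97, Lims1, an adaptor of integrin adhesions, 3.73, Far1, a reductase of ether lipid synthesis, 3.59, Rab31, a GTPase of membrane traffic, 3.59, Hmga2, a chromatin protein, 3.55, and Gja1, the gap junction protein connexin 43, 3.49. Except for Hmga2, whose groups overlapped on day 7 (log2 0.79) and which was called at 24 h (-2.76), each was called on day 7 with no call at 24 h. Lims1 shows the shape, with 8.48, 8.41, 8.13, 8.43 and 8.12 in IL-22-Fc wounds and 4.96, 5.25 and 5.33 in PDGF wounds on day 7. The IL-22-Fc wounds were at the level of control wounds (7.99 to 8.56), and only the PDGF wounds were low. The greatest losses were those of Rnase2a (-8.72), Retnla (-6.15), Ccl24 (-5.07), Krt77 (-3.92), Ddx4 (-3.83) and Chil4 (-3.72).

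**Figure D4:**
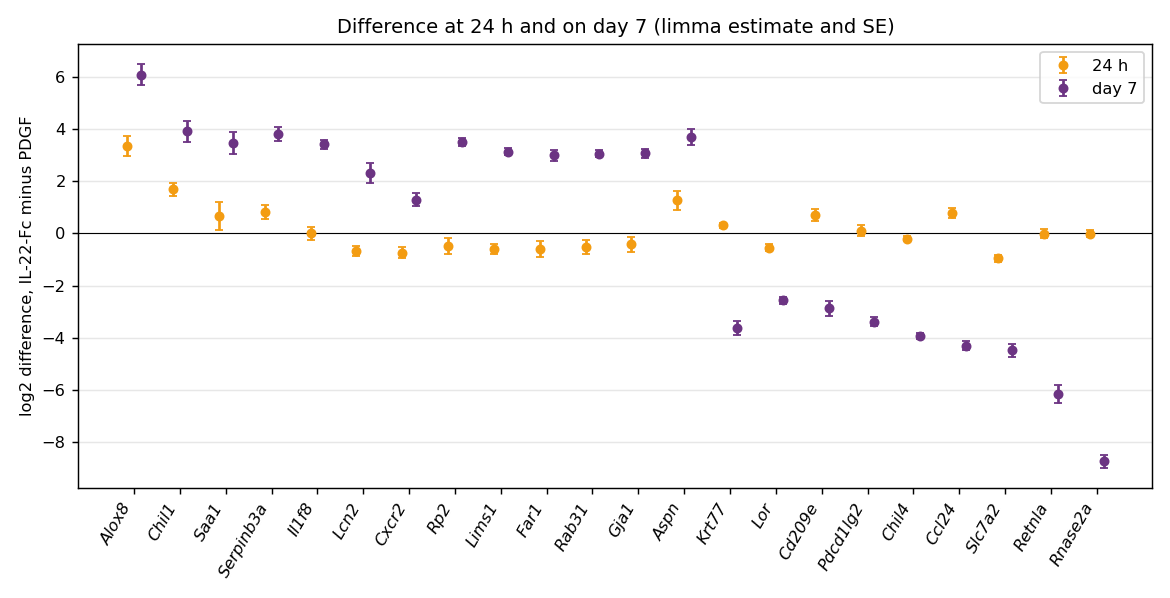
Log2 difference between IL-22-Fc and PDGF wounds at 24 h and on day 7 for 22 named genes, as the limma estimate with its SE (IL-22-Fc n = 5 at both times; PDGF n = 5 at 24 h and n = 3 on day 7). Alox8 and Chil1 lie above zero at both times (3.35 and 1.69 at 24 h), whereas Rp2, Lims1 and Rnase2a were called on day 7 only.

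The probe sets called between IL-22-Fc and PDGF wounds were set beside the unwounded skin array with the low 5' level. Of the 2111 probe sets called higher in IL-22-Fc wounds, 1445 (68.5%) were lower on that array than on all 4 other unwounded arrays. For the 1599 called lower the number was 387 (24.2%), and over all probe sets the share was 29.4%. Above all 4 other arrays were 16.3% of the probe sets called higher and 46.1% of those called lower, against 37.4% of all. Rp2 was at 4.23 on it, against 5.91 to 6.71 on the others, Lims1 at 5.68 against 7.59 to 7.96, and Aspn at 7.27 against 9.43 to 10.12. Other genes did not share this. Alox8 was at 6.57 there, against 3.48 to 4.22 on the other unwounded arrays, and Col11a1 at 8.49, against 2.80 to 3.16, so that array also stood apart in other ways. Rnase2a was at 3.48 on it, against 3.92 to 5.31. With the 5' level as covariate in the 18 day 7 arrays, 23 of the 113 named genes called on day 7 kept their call and direction, and 5 changed sign. In a fit of all 42 arrays with that covariate, chosen after seeing the data, 83 kept both. The 23 genes were Alox8, Cxcl13, Serpinb3a, Vsig4, Rp2, Il1f8, Lpo, Rnase2b, Ehf, Ogn, Lims1, Rab31 and Gja1 on the higher side, and Rnase2a, Retnla, Slc7a2, Ccl24, Chil4, Ramp3, Pdcd1lg2, Laptm5, Syk and Lor on the lower. The covariate follows the PDGF group among these arrays. For these 23 genes too, the 5' level and the treatment therefore cannot be told apart in PDGF wounds of day 7. Control wounds had a 5' level (12.95 to 13.18) near that of IL-22-Fc wounds (12.89 to 13.35). IL-22-Fc wounds stood apart from them in some genes, with means of 11.07 for Alox8, 9.48 for Serpinb3a, 7.70 for Lpo and 10.85 for Lor. The control means were 4.54, 6.11, 4.15 and 13.30. In others, such as Rp2 (6.68 against 6.77 in control) and Lims1 (8.32 against 8.21), they did not. Over all 47 gene lists, the median changed sign with the covariate in 15.

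**Figure D5:**
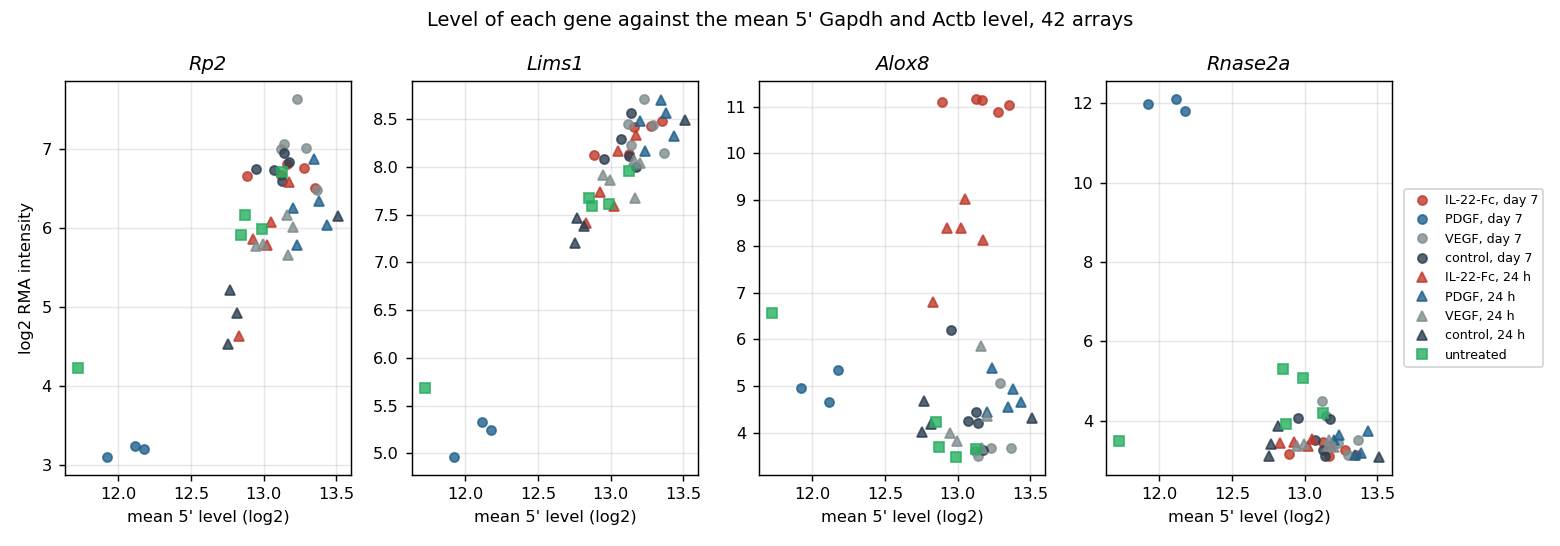
Log2 level of 4 genes on all 42 arrays against the mean 5' level of Gapdh and Actb, by group (circles, day 7; triangles, 24 h; squares, untreated skin of day 0). Rp2 and Lims1 are low on the 3 PDGF arrays of day 7 and on the untreated array at 11.72, whereas Alox8 is high in IL-22-Fc wounds of both times and Rnase2a only on the 3 PDGF arrays. Some 24 h arrays without a low 5' level also had low Rp2, such as 4.53 in a control wound (5' level 12.76) and 4.63 in an IL-22-Fc wound (12.83).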

How the data were processed

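RNA from wound skin was measured on Affymetrix Mouse430 V2 arrays, and the authors deposited a table of linear intensity for 20672 probe sets and 42 arrays. Per the labels, RMA was used (background correction, normalization and summary of probes), and limma is named too, with versions not given in the sources used here. The intensity was used as log2 with no further normalization, and the median log2 level of the day 7 arrays was 5.64 to 5.70. The number of arrays limits the precision. Gene symbols came from the platform annotation, with 17928 probe sets of 1 symbol, 79 of several and 2665 of none, and 17779 were matched to RefSeq by Entrez ID. Of the named genes only Dsc1 had 2 probe sets, of which the first in the table was used throughout.

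The fit was made with limma 3.58.1 in R 4.3.3, with tables read by data.table in version 1.17.8, on 18 day 7 arrays in 4 groups, with Benjamini-Hochberg adjustment over all probe sets. The 24 h contrast and the difference between the times were fitted likewise. The code was tested on simulated data. The members and the 47 gene lists were chosen with earlier results of these data known. Genes were named by rule: the 12 largest changes in each direction with groups that do not overlap, up to 5 called and 3 uncalled members of each list described, the genes the study names for its arrays, receptors and ligands of IL-22 and PDGF, the 6 largest differences between the times in each direction, and the chitinase-like and resistin-like families. Outside the rule, chosen after their values were seen or as cell markers, stand Pglyrp1, Il1f10, Cd163, Ccl8, Mrc1, Lyve1, Cd74, Sprr2i, Tgm3, Ivl, Col1a1, Krt5, Krt1, Adgre1, Il4, Il13 and Il4ra. Alternatives covered the arrays in the fit, weights, normalization, a pseudocount of 16, filters, the variance model, thresholds, the 5' covariate, the methods' t-test and each replicate left out.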

Additional observations from a re-analysis of the deposited data

Results flagged for a closer look

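Single arrays that stood apart within their group were looked for among the named genes in the 5 IL-22-Fc and the 5 control arrays of day 7 (282 groups of values). Dixon's ratio marked 17, where chance gives about 1 in 20 groups. Of these, 12 were single values in IL-22-Fc wounds, each in 1 gene. The highest array stood off at 5.61 for Saa2, 5.40 for Slc7a2, 4.90 for Chia1, 7.59 for Retn, 11.85 for Rnase2b, 9.54 for Il4ra and 6.71 for Hmga2. The lowest array stood off at 8.97 for Serpinb12, 10.22 for Dsc1, 9.35 for Krt15, 9.02 for Pdgfc and 7.62 for Rab31. In control wounds the lowest array stood off at 8.00 for Lcn2, 12.29 for S100a9, 2.48 for Ddx4 and 2.42 for Siglecf, and the highest at 10.12 for Adgre1.

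The difference between IL-22-Fc and PDGF wounds was not the same at both times for 100 of 124 named genes (day 7 minus 24 h on the log2 scale, interaction term in limma, highest adjusted p = 0.0351), with 57 positive and 43 negative values. These genes were named for large differences on day 7 or between the times, so that number is a description, and over all probe sets 20.9% differed. The PDGF arrays of day 7 had a low 5' level and those of 24 h did not, and its part in these values was not tested. Greater is meant with the sign here. It includes differences that were below zero at 24 h, such as those of Lcn2, Saa3, Cxcr2, Clec5a and Hmga2. Among antimicrobial and acute-phase genes the difference was greater on day 7 by 3.21 for Lpo, 3.11 for Defb4, 2.99 for Lcn2, 2.92 for Saa3, 2.81 for Saa1, 2.22 for Chil1, 2.00 for S100a9 and 1.96 for Defb1. In the IL-36 family and the receptor chains for IL-22 and IL-20 the difference was greater on day 7 by 3.40 for Il1f8, 2.74 for Il1f9, 2.51 for Il1f6, 0.99 for Il22ra2 and 0.69 for Il22ra1. Negative values were -0.89 for Il20rb. Among protease inhibitors, kallikreins and lipid enzymes of the epidermis the difference was greater on day 7 by 2.98 for Serpinb3a, 2.73 for Alox8, 1.96 for Serpinb2, 1.75 for Sdr9c7, 1.31 for Lipk, 0.91 for Pla2g4e and 0.78 for Klk8. The opposite sign was found, at -1.46 for Pla2g2e. In genes of cornification, basal cells, junctions and epidermal transcription factors the difference was greater on day 7 by 3.21 for Dsc1, 2.60 for Dsc3, 2.05 for Dsp, 1.79 for Ehf, 1.72 for Tgm3 and 1.09 for Grhl3. Below zero it was -1.95 for Krt15, -2.03 for Lor, -3.09 for Lce1m, -3.14 for Krt2 and -3.92 for Krt77. In genes of alternatively activated macrophages and eosinophils the difference was greater on day 7 by 2.07 for Rnase2b and 1.21 for Lyve1.

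It was -1.32 for Ccl8, -1.35 for Cd163, -1.65 for Alox15, -2.38 for Chil3, -3.48 for Pdcd1lg2, -3.57 for Cd209e, -3.72 for Chil4, -5.07 for Ccl24, -6.15 for Retnla and -8.72 for Rnase2a. In genes of neutrophils, macrophages, lysosomes, antigen presentation and Syk signalling the difference was greater on day 7 by 2.86 for Clec5a, 2.04 for Cxcr2, 1.65 for Cd86 and 1.60 for Atp6v1a. Negative values were -0.64 for Btk, -0.83 for Csf1r, -1.12 for Syk, -1.23 for Laptm5, -1.39 for Cd68, -1.54 for Cd74, -1.55 for Ctsl, -1.57 for H2-Aa, -1.72 for H2-Ab1, -2.38 for Itgax and -2.61 for Atp6v0d2. Among PDGF, STAT3 and type 2 receptor genes the difference was greater on day 7 by 1.504 for Pdgfd, 1.498 for Il13ra1 and 1.26 for Osmr. The opposite sign was found, at -0.66 for Pdgfrb, -0.82 for Pim1 and -1.06 for Pdgfb. In matrix and vessel genes the difference was greater on day 7 by 3.36 for Col11a1, 2.42 for Aspn, 1.56 for Ogn, 1.53 for Lum, 1.39 for Lox, 1.18 for Esm1 and 1.13 for Rgs5. Below zero it was -1.47 for Col5a3, -1.94 for Mmp12 and -2.09 for Vwf. In stress response, amino acid transport and metabolism the difference was greater on day 7 by 2.86 for Slc6a14, 2.63 for Hif1a, 2.19 for Slc7a11, 1.47 for Hmgcs1 and 1.42 for Iars. It was -1.21 for Trib3, -1.40 for Fgf21, -1.65 for Pck2, -1.84 for Slc7a3, -2.10 for Cth and -3.53 for Slc7a2. Among the remaining genes the difference was greater on day 7 by 3.97 for Rp2, 3.73 for Lims1, 3.59 for Far1, 3.59 for Rab31, 3.55 for Hmga2, 3.49 for Gja1, 3.23 for Uox, 2.83 for Vsig4, 2.50 for Sprr2j-ps and 2.27 for Cxcl13. Negative values were -3.34 for Ramp3, -3.69 for Ear3 and -3.83 for Ddx4.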

How the results depend on the processing

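The counts higher and lower in IL-22-Fc than in PDGF wounds (2111 and 1599) were 3524 and 4353 with no fold threshold, 957 and 278 at 2-fold, and 106 and 40 with the 5' level as covariate, of which 101 and 31 were among the original calls. The covariate left 72 of the 4324 differences between the times, 59 of them shared. It also left 2851 probe sets at an unadjusted p under 0.05. Leaving out 1 IL-22-Fc array gave 2062 to 2117 higher, 1529 to 1751 lower and 4203 to 4467 between the times, and leaving out 1 PDGF array 1920 to 2212, 1518 to 1792 and 4087 to 4399. A lone covariate over the 18 day 7 arrays follows the PDGF group closely, so a fit of all 42 arrays with it, chosen after seeing the data, was added. It gave 1541 higher and 1379 lower, of which 943 and 726 were original calls.

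Of the 113 named genes called, 23 kept call and direction under the covariate, 85 lost the call and 5 changed sign, and in all 42 arrays 83 kept both, 27 lost the call and 3 changed sign. With uncalled genes included, the log2 differences that changed sign under the covariate were -0.041 for Saa2, -1.22 for Il33, 0.18 for Stat6, 0.13 for Ivl, -0.36 for Grhl3, -1.61 for Epgn, 0.019 for Il10rb, 0.22 for Pdgfc, -0.35 for Col18a1 and -1.27 for Hmga2. In all 42 arrays with the covariate they were -0.13 for Dsp, -0.68 for Il22ra2, 0.067 for Pdgfa, -0.052 for Lox and -0.85 for Hmga2. The cause was not tested. Medians of 36 of the 47 lists moved by more than their spread under the covariate, and of 13 with the probe sets of lowest interquartile range left out. The methods' t-test, Benjamini-Hochberg adjusted, gave 2030 higher and 1518 lower.

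No paired analysis was possible because the labels give no replicate numbers that tie arrays of different groups. All 3 PDGF arrays were low in 5' level, and none of the 5 IL-22-Fc arrays was. From these arrays alone, the share of each difference that goes with the 5' level cannot be told apart from treatment. Genes near background have compressed differences.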

Other observations

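Several further gene lists were counted in IL-22-Fc against PDGF wounds on day 7, where 10.2% of all probe sets were called higher and 7.74% lower. Of 24 genes of sterol and fatty acid synthesis, 9 were called higher and none lower (median 0.20). Below control were 8 of them in PDGF wounds (9.56% of all probe sets), while in IL-22-Fc wounds none was called above control (1.49%). Hmgcs1, an early enzyme of cholesterol synthesis, was at 10.97, 10.99, 11.13, 11.11 and 10.88 in IL-22-Fc wounds and 8.98, 9.54 and 9.45 in PDGF wounds (3.23-fold, adjusted p = 5.83e-09 in limma). Of 22 genes of glycolysis and hypoxia, 4 were called higher and 1 lower (median 0.13). Among the higher was Gapdh, read by the 5' control probe set that is part of the 5' level. Hif1a, the oxygen-regulated factor, was at 9.06, 8.62, 8.50, 8.69 and 8.07 in IL-22-Fc wounds and 6.41, 6.76 and 6.18 in PDGF wounds (4.41-fold, adjusted p = 4.35e-07). On the unwounded skin array with the low 5' level Hif1a was at 5.12, against 6.55 to 6.71 on the others. Of 34 cell cycle genes, 8 were called higher and 1 lower (median -0.03), and of 60 chromatin regulators 4 and 12 (median -0.29).

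Markers of other cell types in the skin sample were counted too. The shares over all probe sets, 10.2% called higher and 7.74% called lower, apply to each count between IL-22-Fc and PDGF wounds here. Of 14 T and B cell genes none was called higher and 3 lower, with a summed intensity of 507 to 548 in IL-22-Fc wounds and 760 to 882 in PDGF wounds. Of 10 mast cell genes 3 were called higher and none lower, and of 19 adipocyte genes 4 and none. Against control, 11 adipocyte genes were lower in PDGF wounds (9.56% of all probe sets) and 5 in IL-22-Fc wounds (0.803%). Of 22 TGF-beta signalling genes 7 were called higher and 4 lower. Of 20 interferon-stimulated genes 2 were called higher and 1 lower, and of 29 inflammatory cytokines and chemokines 3 and 2. Of 19 skeletal muscle genes 4 were called higher and 1 lower, of 17 pericyte and smooth muscle genes 2 and 1, of 21 hair follicle and sebaceous gland genes 1 and 1, of 11 nerve and melanocyte genes 0 and 2, of 23 immediate early and ERK feedback genes 1 and 2, and of 29 respiratory chain genes 3 and 0. Of 11 housekeeping genes 2 were called higher and 1 lower, Gapdh by its 5' probe set among the higher.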
